A study of Mus musculus with 6 samples.

Results

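The glutathione peroxidases are a family of 8 mouse genes, Gpx1 to Gpx8. They were taken by gene symbol from the 49452 genes of an RNA-seq table on limb bud ectoderm of embryos with and without the transcription factor gene Sp8, and all 8 were present. The family was brought forward because Gpx2 had one of the largest falls in the Sp8 null embryos. The fall of Gpx2 is therefore given as a description, with no test. The other members were chosen by name only.

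The study compared the ectoderm of forelimb buds at E10.5 between 3 Sp8 null and 3 wild-type embryos. C57BL/6 inbred parents gave the wild-type embryos. Sp8 null embryos came from crosses between Sp8+/- mice carrying the Sp8-Cre-ERT2 allele and are described as Sp8-/-. The labels give C57BL6J as the background strain of both groups and name no other allele or agent. The groups therefore came from different crosses, and whether litters were shared is not stated. Each library was made from polyA RNA of both forelimb ectoderms of a single embryo, after trypsin digestion and dissection with forceps. The p-values below measure the spread between these embryos. In such bulk samples, fewer cells of a type and less RNA per cell cannot be told apart.

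Glutathione peroxidases reduce hydrogen peroxide and organic or lipid hydroperoxides to water and alcohols. In the classical members the electrons come from glutathione, a small cysteine-containing peptide whose oxidised form is recycled with NADPH. Several members carry selenocysteine, the selenium analogue of cysteine, in the active site. Selenocysteine is encoded by a TGA codon that is read through with the help of a stem-loop in the 3′ UTR of the mRNA. Gpx1 is the widespread intracellular enzyme, Gpx2 is best known from the epithelium of the gut, and Gpx3 is secreted into plasma. Gpx4 reduces phospholipid hydroperoxides within membranes and holds back ferroptosis, an iron-dependent form of cell death. Gpx5 is an epididymal protein, Gpx6 was described in olfactory tissue, and Gpx7 and Gpx8 act in the endoplasmic reticulum.

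The codon at the active site divides the family, and its surroundings are shown for all 8 members so that the difference can be read directly. Each line holds 27 bases of the coding sequence of the principal transcript, 5′ to 3′ on the strand of the gene, with the codon in capitals. Coordinates are from GRCm38 with the GENCODE M21 annotation. In Gpx1 to Gpx4 the codon is the one annotated as selenocysteine, and in Gpx5 to Gpx8 it is the codon aligned with that of Gpx1.
Gpx1, exon 1 of 2, chr9:108339439-108339465, plus strand: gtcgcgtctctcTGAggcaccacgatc
Gpx2, exon 1 of 2, chr12:76795244-76795270, minus strand: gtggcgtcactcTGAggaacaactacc
Gpx3, exon 2 of 5, chr11:54907244-54907270, plus strand: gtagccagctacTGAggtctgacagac
Gpx4, exon 3 of 7, chr10:80054725-80054751, plus strand: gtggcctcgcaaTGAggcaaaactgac
Gpx5, exon 2 of 5, chr13:21291324-21291350, minus strand: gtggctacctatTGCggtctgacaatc
Gpx6, exon 2 of 5, chr13:21313765-21313791, plus strand: gtggcatccttcTGTggcctgacagct
Gpx7, exon 2 of 3, chr4:108403418-108403444, minus strand: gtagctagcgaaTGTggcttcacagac
Gpx8, exon 2 of 3, chr13:113045649-113045675, minus strand: gtggctagtgacTGCcgcttcacagac

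TGA stands at this place in Gpx1, Gpx2, Gpx3 and Gpx4, whereas Gpx5 to Gpx8 have a cysteine codon, TGC or TGT. In Gpx2 the TGA is codon 40 of 190. Gpx2 was closest to Gpx1, with 63.7% identical residues over 190 aligned positions. Its identity with the other 6 members ran from 34.6% with Gpx8 to 45.95% with Gpx5 and Gpx6. The closest pair of the family was Gpx3 and Gpx6, with 66.97% identical residues, although one has TGA and the other TGT at the active site.

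The libraries were similar in breadth. Between 11835 and 12245 genes reached 1 FPKM (fragments mapped to a gene, scaled by transcript length and by the mapped fragments of the library) in each, and the read depth behind them is unknown. Sp8 read 0.766, 0.460 and 1.14 FPKM in the 3 null embryos against 8.35, 10.97 and 13.5 FPKM in the 3 wild-type embryos, so the genotype labels and the transcript went the same way. Which part of Sp8 the allele removes is not given in the sources used here. The 12 markers of surface ectoderm, among them Trp63, Krt8 and Epcam, summed to 881 to 1143 FPKM in null and 1071 to 1185 FPKM in wild-type embryos, which fits the labelled tissue. By the limma test described below, Epcam fell in null embryos (−0.53, adjusted p = 0.0313) and Tfap2a rose (0.52, adjusted p = 0.0163). Markers of blood and of limb mesenchyme were also present and differed between embryos. All 9 erythroid markers together summed to 62.6 to 163 FPKM in null and 11.7 to 427 FPKM in wild-type embryos. The 12 mesenchyme markers summed to 45.4, 52.2 and 177 FPKM in null and 40.6 to 79.5 FPKM in wild-type embryos, with the highest sum in null embryo 2. Endothelial markers summed to at most 4.43 FPKM in any embryo. The 9 macrophage markers summed to 1.76, 3.39 and 2.59 FPKM in null and 1.25, 0.276 and 0.611 FPKM in wild-type embryos, low throughout but higher in every null embryo, and their part in the member levels was not tested. No marker of these 5 lists was at 0 in every library.

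Differences between genotypes were tested with limma on log2(FPKM + 1) over the 12133 genes that reached 1 FPKM in at least 3 libraries. Fold changes are on that scale, null minus wild type, which understates the change of low genes. A gene is said to rise or fall where its Benjamini-Hochberg adjusted p was under 0.05. By this rule 6.83% of the tested genes changed, 5.15% downward and 1.68% upward, and the median difference of all tested genes was −0.06. An unadjusted p under 0.05 was reached by 24.0% of the tested genes, the share against which such counts below are to be read. The split of the calls depended on scaling. Of the called genes, 75.4% were lower as deposited, 62.8% after median-of-ratios scaling of the libraries and 58.3% after upper-quartile scaling. Of the glutathione peroxidases, 7 of 8 passed the filter on low values, Gpx2 only through its wild-type libraries. Gpx5 did not pass.

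In wild-type ectoderm the family was led by Gpx1. FPKM is per length, so levels of different genes can be set side by side. Mean levels in wild type were 190 FPKM for Gpx1, 34.3 for Gpx3, 22.9 for Gpx8, 22.02 for Gpx2, 18.2 for Gpx4, 3.30 for Gpx7 and 1.60 for Gpx6, and Gpx5 was listed at 0. The range of Gpx1 lay above that of every other member. Gpx3, Gpx8, Gpx2 and Gpx4 formed a middle tier in which each overlapped its neighbour in the order. In the null embryos Gpx2 dropped from this tier to a place below Gpx6, without overlap. Above it the ranges of Gpx1, Gpx4, Gpx3 and Gpx8 each overlapped the next, and Gpx7 and Gpx6 followed without overlap. The place of Gpx4 is uncertain, since its FPKM parted from the authors' deposited means, as given below. With Gpx4 set aside, the null range of Gpx1 lay above that of every other member, as in wild type.

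**Figure D1:**
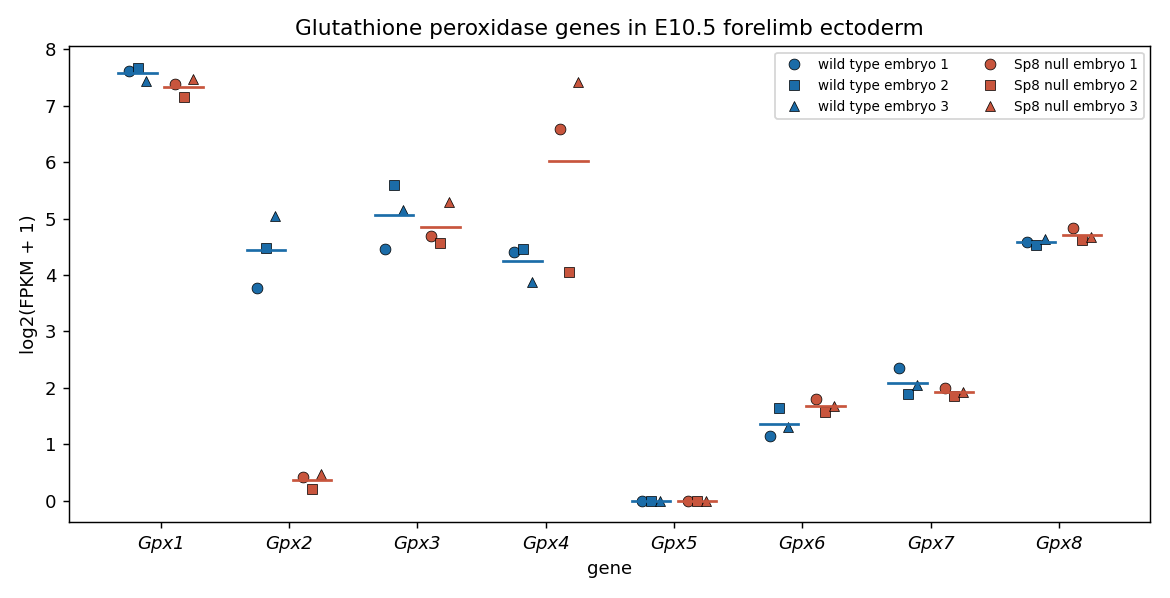
Level of each glutathione peroxidase as log2(FPKM + 1) in the 3 wild-type (blue) and 3 Sp8 null (red) embryos, with 1 point per embryo, its shape giving the embryo number, and a bar at the mean of each group. The Gpx2 points stand for 12.7 to 31.97 FPKM in wild type and at most 0.394 FPKM in null embryos, while the points of the other detected members overlap between genotypes, with Gpx4 spread from 15.6 to 171 FPKM among the null embryos.

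Gpx2 (ENSMUSG00000042808, chr12:76792333-76795554, minus strand) read 12.7, 21.4 and 31.97 FPKM in wild-type embryos 1, 2 and 3. It read 0.336, 0.149 and 0.394 FPKM in null embryos 1, 2 and 3. The groups were far apart, and even within wild type the level differed more than 2-fold between the lowest and the highest embryo. The mean was 22.02 ± 9.65 FPKM in wild type and 0.293 ± 0.128 FPKM in null embryos (SD, n = 3 each), a ratio of 75.1. On the log2(FPKM + 1) scale the difference was −4.07, the second lowest of the 12133 tested genes, and −5.78 with a pseudocount of 0.1. These values chose the gene and are given without a test. In the authors' deposited table the normalized mean of Gpx2 was 257.6 in wild type and 3.91 in Sp8 null, a ratio of 65.9, while the fold change listed there was −11.2.

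Expressed as a share of the summed FPKM of all 8 members, Gpx2 made up 4.59%, 6.68% and 11.4% in wild-type embryos 1 to 3. Its share in the null embryos was 0.105%, 0.0718% and 0.0950%. The sum itself was 277, 320 and 280 FPKM in wild type and 319, 208 and 415 FPKM in null embryos, so the groups overlapped. The spread of the null sums was mostly that of Gpx4. Without Gpx4 the 7 other members summed to 257, 299 and 266 FPKM in wild type and to 225, 192 and 244 FPKM in null embryos. Every null sum then lay below every wild-type sum, with Gpx2, the gene chosen for its fall, included. Without Gpx2 as well the sums were 244, 278 and 234 FPKM in wild type and 224, 192 and 244 FPKM in null embryos. These overlapped only through null embryo 3, which lay above wild-type embryo 3. The separation was not that of Gpx2 alone. Gpx1 also had a lower mean, 161 FPKM in null against 190 FPKM in wild-type embryos. Of the sum without Gpx4 alone, the share of Gpx2 was 4.95%, 7.15% and 12.003% in wild type and 0.150%, 0.0776% and 0.162% in null embryos. Gpx1 made up 64.4% to 75.9% of that sum in wild type and 72.1% to 74.1% in null embryos.

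Reads from Gpx2 can also match a processed pseudogene, a copy of the mRNA elsewhere in the genome. Gpx2-ps1 (chr7:100264675-100265245, plus strand) was 98.1% identical to the Gpx2 transcript over 572 bases, with 10 mismatches. It read 0.629, 1.27 and 1.93 FPKM in wild-type embryos 1 to 3 and 0, 0 and 0.123 FPKM in the null embryos. In wild type this was 4.95%, 5.93% and 6.04% of the Gpx2 level in the same embryo, so the copy followed the gene, and reads of the pair cannot be assigned with certainty. A second copy, Gm14831, with 82.8% identity over 407 bases, was listed at 0 in every library.

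The promoter of Gpx2 is shown because its transcript moved and because it holds no CpG dinucleotide. The window runs from 250 bases before to 50 bases after the RefSeq start (GRCm38.p6, chr12:76795505-76795804, minus strand), with matches to the searched motifs in capitals.
Gpx2 promoter: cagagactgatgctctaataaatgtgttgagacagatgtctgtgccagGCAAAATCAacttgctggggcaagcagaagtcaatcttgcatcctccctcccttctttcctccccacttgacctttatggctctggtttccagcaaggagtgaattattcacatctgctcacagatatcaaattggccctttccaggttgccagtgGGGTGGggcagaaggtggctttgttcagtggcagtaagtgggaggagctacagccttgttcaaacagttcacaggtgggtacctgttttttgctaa

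This window held no CpG dinucleotide, as did 5.43% of the 32817 RefSeq windows of the same length, whose median was 7. Its GC content was 48.3%, against a median of 52.7%, and lay among those of the other members, which ran from 45.0% for Gpx5 to 68.3% for 1 of the windows of Gpx4. The windows of Gpx1, Gpx3, Gpx7 and Gpx8 held 11, 13, 19 and 13 CpG, and the 4 windows of Gpx4 held 3, 31, 26 and 29. Gpx5 and Gpx6, which were absent or low here, had 4 and 3. Both strands were searched for 5 motifs by exact letters, and none of the motifs contains another. The CACCC box CCACCC, a sequence of the kind Sp and Klf zinc finger proteins are known to bind, matched once on the opposite strand, at positions −46 to −41 from the start, and occurred in 31.5% of all windows. The core of the antioxidant response element, TGANNNNGC, matched once on the opposite strand, at positions −202 to −194 from the start, and occurred in 41.3% of all windows. The GC box GGGCGG (35.6% of all windows), the TCF/LEF site CTTTGAT (3.73%) and the TATA box TATAAA (13.6%) had no match in the letters of this window. Among the other members the GC box was present in the windows of Gpx1, Gpx3 and Gpx7 and in 3 of the 4 windows of Gpx4. The CACCC box also occurred in windows of Gpx4. The window of Gpx6, which was not called, matched as that of Gpx2 did. It held 1 CACCC box, 1 antioxidant response element core and no GC box. A match of letters describes the sequence and not the binding of a factor.

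None of the 6 other tested members passed the threshold by limma, and 1 of them, Gpx4, had an unadjusted p under 0.05, beside 24.0% of all tested genes. All 6 overlapped between the genotypes, whereas the groups did not overlap in 29.8% of all tested genes. Their median difference was −0.02, beside −0.06 for all tested genes, with 3 members lower and 3 higher in mean. The differences and their intervals are given member by member below.

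**Figure D2:**
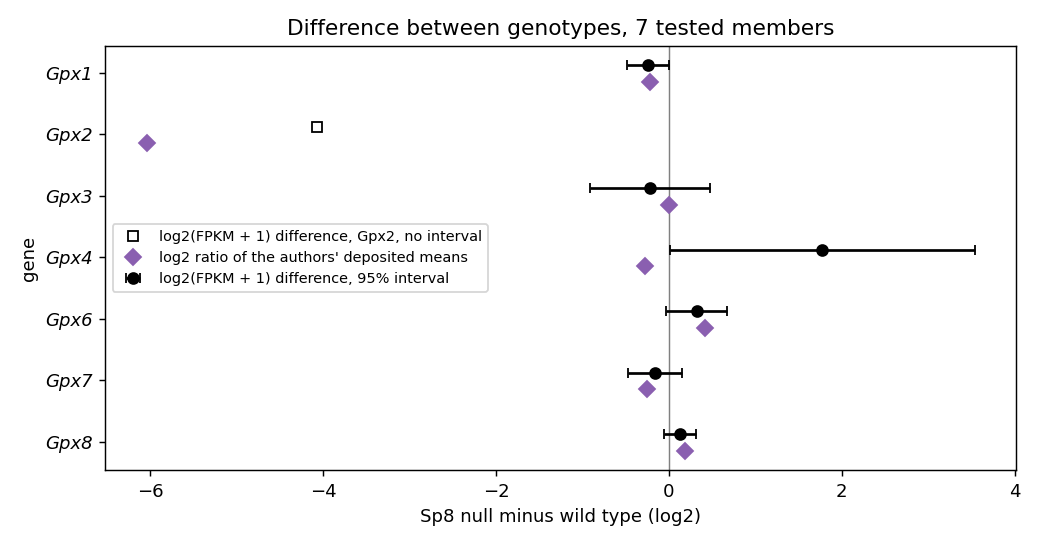
Difference of each tested glutathione peroxidase between genotypes, Sp8 null minus wild type, on a log2 axis. Circles are differences of log2(FPKM + 1) with 95% intervals from the limma fit, the open square is that of Gpx2 (−4.07) without an interval, and diamonds are log2 ratios of the means in the authors' deposited table, which lie on the other side of 0 from the circle for Gpx4 and, with almost no difference between the means, for Gpx3.

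Gpx1 (ENSMUSG00000063856, chr9:108338903-108340343, plus strand), the most abundant member and the closest relative of Gpx2, read 195, 204 and 171 FPKM in wild-type embryos 1 to 3. It read 167, 141 and 176 FPKM in null embryos 1 to 3. Null embryo 3 lay above wild-type embryo 3, so the groups overlapped. The mean was 190 ± 16.6 FPKM in wild type and 161 ± 18.1 FPKM in null embryos (SD, n = 3 each). The difference was −0.24 (SE 0.10, 95% interval −0.48 to 0.00, limma adjusted p = 0.215). No increase of Gpx1 was thus measured where Gpx2 was low. Red blood cells are known to be rich in Gpx1. The sums of erythroid markers were 427, 36.6 and 11.7 FPKM in wild-type embryos 1 to 3 and 163, 62.6 and 103 FPKM in null embryos 1 to 3, so that in each genotype the embryo with the lowest sum also had the lowest Gpx1, while the embryo with the highest sum did not have the highest. Their part in the Gpx1 level was not tested. In the authors' deposited table Gpx1 had normalized means of 2811 in wild type and 2426 in Sp8 null, a fold change of −1.15.

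Gpx3 (ENSMUSG00000018339, chr11:54902453-54910377, plus strand), the secreted member, read 21.01, 47.3 and 34.6 FPKM in wild-type embryos and 24.8, 22.6 and 38.3 FPKM in null embryos. Both genotypes held a low and a high embryo, and the ranges overlapped widely. The means were 34.3 ± 13.1 and 28.5 ± 8.48 FPKM (SD, n = 3 each), a difference of −0.22 (SE 0.30, 95% interval −0.92 to 0.47, limma adjusted p = 0.696). Without wild-type embryo 2 the sign turned, to 0.04. The authors' deposited table gave normalized means of 369 in wild type and 370 in Sp8 null for Gpx3.

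Gpx4 (ENSMUSG00000075706, chr10:80047166-80056439, plus strand), the enzyme of membrane lipid peroxides, read 20.1, 20.97 and 13.6 FPKM in wild-type embryos. In the null embryos it read 94.7, 15.6 and 171 FPKM, so that null embryos 1 and 3 stood above every wild-type embryo and null embryo 2 lay within the wild-type range. The means were 18.2 ± 4.03 FPKM in wild type and 93.8 ± 77.8 FPKM in null embryos (SD, n = 3 each). The difference was 1.78 (SE 0.76, 95% interval 0.01 to 3.54, limma adjusted p = 0.205). Without null embryo 2 it was 2.76, with an adjusted p of 0.00344, so 1 embryo decided this call.

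The FPKM of Gpx4 and the normalized means of the authors' deposited table went in different directions. In the authors' deposited table Gpx4 had a mean of 339 in wild type and 280 in Sp8 null, a fold change of −1.19 with p = 0.0726. The gap between the FPKM ratio and the ratio of deposited means was 2.64 on the log2 scale, against a median absolute gap of 0.0405 over the 11017 tested genes with both deposited means over 50. No other of these genes had a gap as large. The direction of Gpx4 is therefore not settled by these data. A near-identical pseudogene, Gpx4-ps2 (chr10:45875291-45876086, plus strand), matched the Gpx4 transcript over 762 bases with 2 mismatches, so their reads cannot be assigned with certainty either. It read 1.37, 1.30 and 2.02 FPKM in wild-type and 0.837, 1.07 and 1.43 FPKM in null embryos, with overlapping groups and a difference of −0.28 (limma adjusted p = 0.342).

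The cysteine members were low apart from Gpx8. Gpx5 (ENSMUSG00000004344, chr13:21286429-21292731, minus strand), the epididymal member, was listed at 0 in all 6 libraries and was not tested. Its neighbour Gpx6 (ENSMUSG00000004341, chr13:21312125-21319624, plus strand) read 1.21, 2.11 and 1.47 FPKM in wild-type and 2.49, 1.97 and 2.18 FPKM in null embryos. Wild-type embryo 2 lay within the null range. The means were 1.60 ± 0.461 and 2.22 ± 0.261 FPKM (SD, n = 3 each), a difference of 0.32 (SE 0.15, 95% interval −0.03 to 0.67, limma adjusted p = 0.244).

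Gpx7 (ENSMUSG00000028597, chr4:108400390-108406961, minus strand) and Gpx8 (ENSMUSG00000021760, chr13:113042753-113046410, minus strand) use peroxide to oxidise protein disulfide isomerase during protein folding. Gpx7 read 4.08, 2.69 and 3.13 FPKM in wild-type and 3.01, 2.64 and 2.80 FPKM in null embryos, so the genotypes overlapped. Its means were 3.30 ± 0.708 and 2.81 ± 0.186 FPKM (SD, n = 3 each), a difference of −0.16 (SE 0.13, 95% interval −0.47 to 0.15, limma adjusted p = 0.516). Gpx8 was the steadiest member, with 22.9, 22.1 and 23.8 FPKM in wild-type and 27.6, 23.5 and 24.6 FPKM in null embryos. Wild-type embryo 3 lay above null embryo 2, and the means were 22.9 ± 0.813 and 25.2 ± 2.09 FPKM (SD, n = 3 each). The difference was 0.13 (SE 0.08, 95% interval −0.06 to 0.32, limma adjusted p = 0.372), and its highest reading over the 6 libraries was 1.25 times its lowest.

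All 7 detected members had their lowest null reading in null embryo 2. That library also had the lowest sum of surface ectoderm markers, 881 FPKM, and the highest sum of mesenchyme markers, 177 FPKM. The part of these values in the member levels was not tested. Gpx2 stayed at −3.99 when null embryo 2 was left out, and between −4.40 and −3.76 over the 6 fits that each left out 1 library.

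The genes whose log2(FPKM + 1) ran most like Gpx2 over the 6 libraries were Capza2, Eapp, Diras2, Col17a1 and Sp8 itself, with Pearson r from 0.996 to 0.998 among 11965 genes compared. The likeness is a description over 6 points that fall into the genotype groups, and 650 genes reached r of at least 0.9. Capza2, a subunit of the actin capping protein, read 62.5, 67.0 and 69.3 FPKM in wild type and 51.3, 51.2 and 51.6 FPKM in null embryos. Eapp read 13.4, 14.3 and 14.9 FPKM in wild type and 11.2 FPKM in each null embryo. These 2 had small differences, −0.36 and −0.32.
Diras2, a small GTPase, and Col17a1, the hemidesmosomal collagen XVII of basal epithelial cells, differed more, by −0.94 and −0.93. Diras2 read 3.44, 3.76 and 4.71 FPKM in wild type and 1.61, 1.51 and 1.61 FPKM in null embryos, and Col17a1 read 1.90, 2.12 and 2.25 against 0.627, 0.610 and 0.612 FPKM. All of these genes had the wild-type order of Gpx2, lowest in embryo 1 and highest in embryo 3. They were chosen for a high r with Gpx2 over the same libraries, so the shared order is no separate finding. Of the 11965 genes compared, 71 had the order of Gpx2 in all 6 libraries.

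Gpx2 lies on chromosome 12, as does Sp8, with 42.1 Mb between them, and it sits inside the gene body of Fntb, a farnesyltransferase subunit on the opposite strand, without sharing exon bases. Of the 5 nearest tested genes on each side, 5 of 10 fell and none rose, beside 5.15% lower among all tested genes. On the whole chromosome 36 of 416 tested genes were called in either direction, Sp8 itself among them, beside 6.83% of all tested genes. Fntb, which overlaps Gpx2, read 9.86, 10.02 and 10.7 FPKM in wild type and 9.39, 8.46 and 10.9 FPKM in null embryos, a difference of −0.09 (limma adjusted p = 0.654). Rab15, a small GTPase encoded 2.41 kb away, read 18.2, 20.0 and 23.4 FPKM in wild type and 11.99, 10.6 and 14.5 FPKM in null embryos. The groups of Rab15 did not overlap, and it fell by 0.70 (SE 0.13, limma adjusted p = 0.0253), a call that was lost without null embryo 1 or 2 or without wild-type embryo 2 or 3.
The other neighbours that fell were Hspa2, a heat shock protein (−0.72), Sptb, a spectrin (−0.67), Fut8, a fucosyltransferase (−0.61), and Plekhg3 (−0.49), with limma adjusted p from 0.0117 to 0.0448. Ppp1r36, Max, Churc1 and Gphn differed by −0.42, −0.26, −0.06 and −0.06 and did not pass. The count depended on single libraries and settings. Leaving out 1 library gave 1 to 3 calls, 2 without null embryo 2 for example, and the fit without a filter on low values gave 0. None of the 10 neighbours came near the difference of Gpx2.

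**Figure D3:**
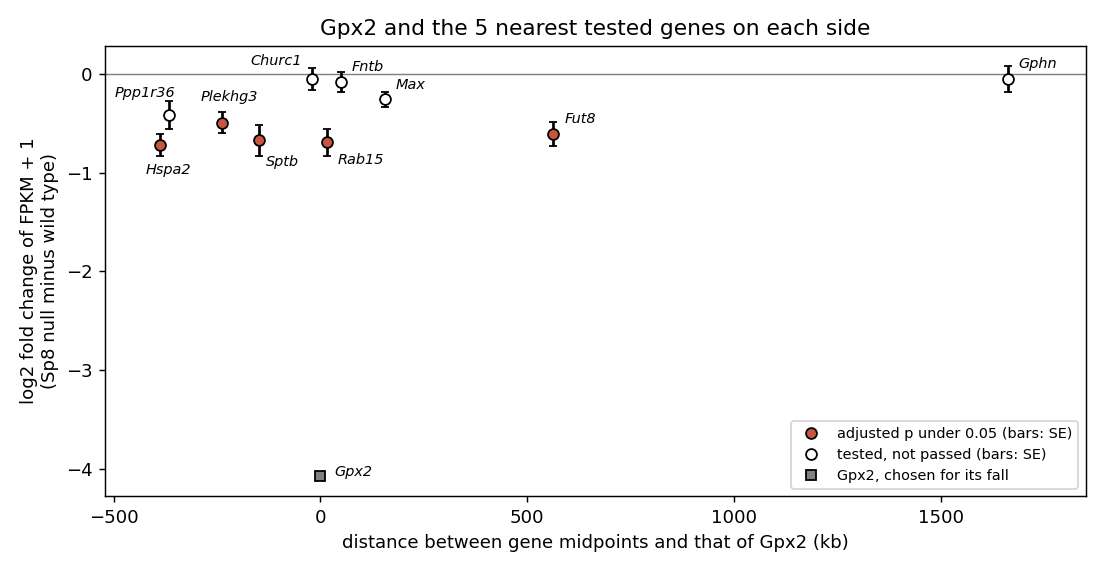
Difference between genotypes on the log2(FPKM + 1) scale for Gpx2 and its 10 tested neighbours on chromosome 12, against the distance of each gene's middle from that of Gpx2 in kb, with SE bars for the neighbours. Gpx2 (square) stands at −4.07, and the neighbours lie between −0.72 and −0.06, with filled points for those that passed the threshold and open points for the rest.

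The rest of glutathione and peroxide metabolism was read from the same fit, in 9 lists that hold 126 genes of the table. Of these, 90 were tested, 11 fell and 2 rose, 14.4% in all beside 6.83% of all tested genes, with a median difference of −0.14 beside −0.06. After median-of-ratios or upper-quartile scaling the split was 10 lower and 4 higher. With 1 library left out between 4 and 10 of these genes were called, with 4 called without null embryo 2 or without wild-type embryo 2, and 7 without null embryo 1 or wild-type embryo 1. Slc7a11, Mgst3, Prdx4 and Slc39a14 were called in all fits that left out 1 library, while the other 9 genes lost their call both without null embryo 2 and without wild-type embryo 2. The lists share genes with each other, and their changes were not tested as sets.

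In glutathione synthesis, breakdown and reduction 3 of 9 tested genes fell and none rose, with a median of −0.40. The share called was 33.3%, beside 6.83% of all tested genes. Slc7a11, the cystine carrier that supplies cysteine for glutathione, read 10.53, 13.4 and 10.2 FPKM in wild type and 6.54, 5.13 and 6.15 FPKM in null embryos. The groups did not overlap, and Slc7a11 fell by 0.83 (SE 0.13, limma adjusted p = 0.0115). Gclm, the modifier subunit of glutamate-cysteine ligase, read 6.97, 8.67 and 7.93 FPKM in wild type and 5.42, 4.69 and 4.90 FPKM in null embryos and fell by 0.56 (adjusted p = 0.0217). Ggct, a cyclotransferase of glutathione breakdown, fell by 0.51 (adjusted p = 0.0369). Slc3a2, the heavy chain that partners Slc7a11 and other carriers, had the highest level of the list and differed by −0.07 (adjusted p = 0.681), from 19.1 to 18.1 FPKM.

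In the NADPH list 1 of 11 tested genes fell and none rose, 9.09% beside 6.83% of all tested genes. Its median was −0.07, beside −0.06 for all tested genes, so the list stayed near the background. Tkt, transketolase of the pentose phosphate pathway, read 15.4, 15.5 and 16.3 FPKM in wild type and 11.8, 11.3 and 11.8 FPKM in null embryos, and it fell by 0.40 (limma adjusted p = 0.0167). Idh1, a cytosolic source of NADPH and the highest of the list, differed by −0.05 (adjusted p = 0.728).

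The glutathione S-transferases, which join glutathione to other molecules, moved in both directions, with 2 higher and 2 lower of 15 tested. The share called was 26.7%, beside 6.83% of all tested genes, and the median was 0.15. Mgst3, a microsomal enzyme with both transferase and peroxidase activity, read 10.47, 9.36 and 10.3 FPKM in wild type and 3.83, 2.76 and 3.12 FPKM in null embryos. The groups of Mgst3 were far apart, and it fell by 1.39 (SE 0.11, limma adjusted p = 0.000635). Gstk1 fell by 0.44 (adjusted p = 0.0404). Gstt3 read 2.15, 2.44 and 2.66 FPKM in wild type and 3.75, 4.10 and 4.57 FPKM in null embryos, and rose by 0.59 (adjusted p = 0.0217), and Gstm1 rose by 0.52 (adjusted p = 0.0410). Genes of the Gstm cluster resemble each other, so the split of reads between Gstm1 and its relatives is uncertain. Gstm5, the highest of the list, differed by 0.15 (adjusted p = 0.293).

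Among the thioredoxins, peroxiredoxins and glutaredoxins, the parallel system of peroxide removal, 3 of 16 tested genes fell and none rose. The share called was 18.75%, beside 6.83% of all tested genes, and the median was −0.21. Prdx4, the peroxiredoxin of the endoplasmic reticulum, read 30.7, 30.3 and 27.01 FPKM in wild type and 20.0, 16.8 and 18.1 FPKM in null embryos. The groups did not overlap, and Prdx4 fell by 0.66 (SE 0.09, limma adjusted p = 0.00675). Glrx5, a mitochondrial glutaredoxin of iron-sulfur cluster assembly, fell by 0.55 (adjusted p = 0.0186). Txnrd1, the cytosolic thioredoxin reductase and itself a selenoprotein, read 662, 647 and 494 FPKM in wild type and 407, 411 and 428 FPKM in null embryos and fell by 0.52 (adjusted p = 0.0414).
Of the superoxide dismutases and catalase, none of 4 tested genes passed by limma and 1 had an unadjusted p under 0.05, beside 24.0% of all tested genes. This was Sod1, the cytosolic dismutase, at 403, 398 and 399 FPKM in wild type and 348, 342 and 333 FPKM in null embryos, a difference of −0.23 (adjusted p = 0.0592).

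The genes that make selenocysteine and insert it were tested because 4 of the peroxidases depend on them. None of 9 passed by limma, 2 had an unadjusted p under 0.05, beside 24.0% of all tested genes, and the median was −0.11. Sephs1, the highest of the list, differed by −0.25 (adjusted p = 0.108). The list of other selenoproteins leaves out the thioredoxin reductases, of which Txnrd1 fell as given above. Of its 12 tested genes none passed, 4 had an unadjusted p under 0.05, beside the same 24.0%, and the median was −0.18. Their FPKM were uneven, with a highest reading at least 3 times the lowest over the 6 libraries in 7 of the 12. Selenow, a small muscle-enriched selenoprotein and the highest of the list, read 389, 458 and 420 FPKM in wild type and 459, 380 and 525 FPKM in null embryos, which overlapped (difference 0.10, adjusted p = 0.683). In the authors' deposited table its fold change was 1.21 with p = 9.8e-05, by a test not given in the sources used here.

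Nrf2, encoded by Nfe2l2, is the factor known to act through antioxidant response elements, and human GPX2 is a known target of it. Of 11 tested genes of this list 3 fell and none rose, 27.3% beside 6.83% of all tested genes, with a median of −0.23. The 3 were Slc7a11, Gclm and Txnrd1, which are counted above as well. By mean, 9 of the 11 were lower and 2 higher. One of the higher was the known target Hmox1 (0.32, adjusted p = 0.207). The targets Nqo1 and Srxn1 did not pass the filter on low values, so no general fall of Nrf2 targets is shown. In the list on ferroptosis and lipid peroxide control 2 of 8 tested genes fell and none rose, with a median of −0.37. The share called was 25%, beside 6.83% of all tested genes. Slc39a14, a zinc and iron importer, read 7.74, 7.91 and 7.25 FPKM in wild type and 2.04, 1.70 and 1.87 FPKM in null embryos. The groups of Slc39a14 were far apart, and it fell by 1.59 (SE 0.09, limma adjusted p = 0.000152). Acsl4, which activates the polyunsaturated fatty acids whose peroxides Gpx4 reduces, read 10.9, 16.8 and 13.01 FPKM in wild type and 6.59, 4.48 and 7.85 FPKM in null embryos and fell by 1.01 (adjusted p = 0.0320). Tfrc, the transferrin receptor and the highest of the list, differed by −0.60 (adjusted p = 0.0794). It is also a gene of red cell precursors, whose markers summed to 11.7 to 427 FPKM, and the part of those cells in its level was not tested.

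**Figure D4:**
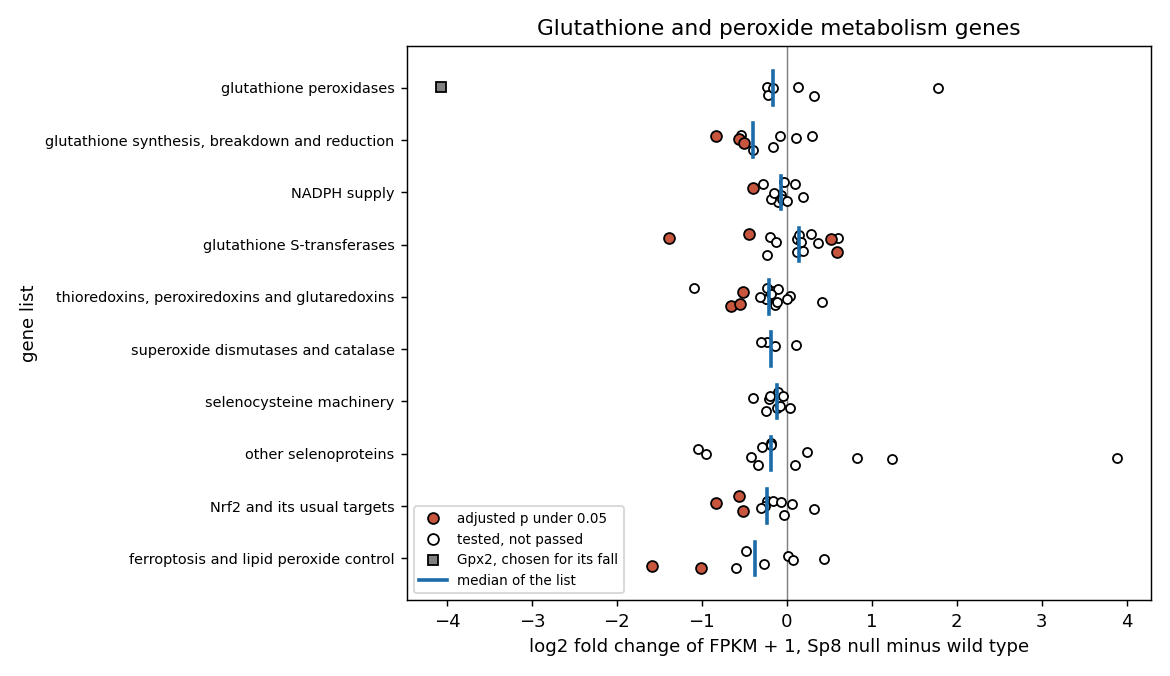
Differences between genotypes, Sp8 null minus wild type on the log2(FPKM + 1) scale, for the tested glutathione peroxidases and the tested genes of the 9 other lists, with 1 point per gene and a blue bar at each list's median. Filled points passed the threshold and open points did not; apart from Gpx2 (square), Slc39a14 at −1.59 and Mgst3 at −1.39 lie lowest, and the medians run from −0.40 for glutathione synthesis to 0.15 for the glutathione S-transferases.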

How the data were processed

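RNA-seq of forelimb ectoderm was deposited as 1 table for 3 Sp8 null and 3 wild-type embryos. FPKM per library and a status word per estimate were computed by the authors, per the file headers, with Ensembl 87 gene models; all 48 estimates of the members had the status OK. The deposited table also holds a normalized mean signal per group, of which the control mean was taken as wild type and the sample mean as Sp8 null, a signed fold change, treated as a score of the authors' own, and a p-value, whose test and adjustment are not given in the sources used here. TopHat2, Cufflinks, DESeq2, SAMtools, FastQC and the build GRCm38 are named in the submitters' processing notes, with no role or order. Use of strand in counting is not given in the sources used here. Read depth is unknown, so no counting interval is given.

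Values were transformed to log2(FPKM + 1), genes at 1 FPKM or more in at least 3 of 6 libraries were kept, and limma 3.58.1 (R 4.3.3) with a mean-variance trend was fitted on genotype, two-sided, with Benjamini-Hochberg adjustment over all tested genes and a threshold of 0.05. The procedure was tested on simulated data. Transcripts were compared with BLAST+ 2.17.0, and matches of at least 80% identity over 100 bases were kept. All 8 members matched the RefSeq promoter table, with 11 windows. Embryo numbers do not pair the samples: deviations of same-numbered embryos from their group means correlated at −0.16, −0.14 and −0.07. Members, lists and tests were chosen with earlier results of these data known. Named genes were all members, Sp8, the 5 genes with the highest Pearson r with Gpx2, the 5 nearest tested genes on each side of it and, per list, at most the 3 largest called changes each way and the gene with the highest mean. Alternatives were another pseudocount, other filters, 2 scalings between libraries, the embryo number as a block, the leading number of the sample names as a covariate, genes with failed estimates left out, no trend, and each library left out. Residue identities between members come from translating the coding sequences of the principal GENCODE M21 transcripts, with selenocysteine read as cysteine.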

Additional observations from a re-analysis of the deposited data

How the results depend on the processing

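Depth behind the values is unknown, and 3 embryos a genotype limit what could pass. Of 103 values of the members over the alternatives, 100 were counted as unchanged. They kept direction and side of the threshold or, for Gpx2, which was given no call, lay between −4.40 and −3.76. The exceptions were Gpx2 at −5.78 with a pseudocount of 0.1, where the smaller constant lowers the floor of the log scale, Gpx4 at 2.76 without null embryo 2 (range 1.07 to 2.76 over the fits leaving out 1 library), and Gpx3 at 0.040 without wild-type embryo 2 (range −0.53 to 0.040). Adjusted p ranged over the alternatives from 0.155 to 0.488 for Gpx1, from 0.00344 to 0.426 for Gpx4 and from 0.159 to 0.486 for Gpx6.

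The 829 calls became 342 with no filter on low values, where 27766 genes were tested, 328 with the embryo number as a block, 545 with the leading number as a covariate, and 316 to 642 with 1 library left out. Of the 13 calls in the 9 lists, 4 were made with no filter, 4 with the block, and 4 to 10 with 1 library left out. The block is no pairing by origin, since the numbers are only names. Of the listed genes, Mgst3, Prdx4 and Slc39a14 were called under every alternative that tested them, and Slc7a11 under 14 of 15. Over 42 single genes and 619 values, 479 kept direction and call, 123 lost the call and 15 changed sign. The sign changes were small: Churc1 went to 0.014 and 0.038 under median-of-ratios and upper-quartile scaling and to 0.0060 and 0.010 without wild-type embryos 1 and 2; Fntb to 0.0021 under upper-quartile scaling; Gphn to 0.0054 and 0.026 under the scalings, 0.031 without null embryo 1 and 0.051 without wild-type embryo 2; Slc3a2 to 0.018 under upper-quartile scaling and 0.0070 without wild-type embryo 1; Idh1 to 0.017 and 0.041 under the scalings; and Selenow to −0.013 without null embryo 3. With 1 library left out the lowest value was −0.18 for Churc1, −0.14 for Gphn and −0.12 for Slc3a2, and the highest for Selenow was 0.22. Except where stated, the cause was not tested.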

Other observations

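The uneven FPKM of Gpx4 was shared by several other selenoprotein genes, a comparison chosen after the values were seen. Among the 12 tested other selenoproteins, 7 (58.3%) had a highest reading at least 3 times the lowest over the 6 libraries, against 5.86% of the 12133 tested genes and 2.46% of the 7359 with a mean of at least 5 FPKM. The median ratio of highest to lowest was 3.36 for these 12 and 1.41 for all tested genes. Selenom read 338, 594 and 297 FPKM in null embryos 1 to 3 and 3.77, 13.1 and 277 FPKM in wild-type embryos 1 to 3. Wild-type embryo 3 lay with the null embryos, and the authors' deposited table gave normalized means of only 35.2 in wild type and 52.5 in Sp8 null for this gene. Selenok, a protein of the endoplasmic reticulum membrane, read 32.9, 290 and 102 FPKM in null and 41.4, 109.5 and 38.2 FPKM in wild-type embryos, while the authors' deposited table gave means of 658 and 716.

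Selenop, the secreted carrier of selenium, read 96.8, 67.5 and 39.2 FPKM in null and 21.5, 17.2 and 48.9 FPKM in wild-type embryos. Wild-type embryo 3 overlapped the null range. The fold change in the authors' deposited table was 1.51 with p = 1.5e-05, by a test not given in the sources used here. Selenoprotein genes were not uniformly uneven. Selenow, Selenot and Selenoh had ratios of 1.38, 1.35 and 1.35, and of the selenocysteine peroxidases Gpx1 and Gpx3 had 1.44 and 2.25, against 12.6 for Gpx4. The cysteine members Gpx6, Gpx7 and Gpx8 had 2.06, 1.55 and 1.25.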
